A study of Drosophila melanogaster with 23 samples.

Results

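Prim1 encodes the small catalytic subunit of DNA primase, and its transcript was followed here in Drosophila S2R+ cells that were moved from 25 °C to 14 °C. On the arrays it is read by 1 probe (A_09_P029361) out of 32162 distinct gene probes, and that probe is spotted once on each array. The deposited files give the probe's transcript as FBtr0076603, and the gene also carries the identifiers CG7108 and DNApol-alpha50. In the RefSeq annotation it lies on chromosome arm 3L, next to Pex2, and CG7083 lies inside its span. The gene was picked because its change after 72 h at 14 °C was among the lowest of all named genes, so the values at 72 h against 25 °C, and those at the other times against the same baseline, are given as a description with no test.

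The study asked how the transcriptome of these cells responds over time to a suboptimal temperature. S2R+ cells are an established line of embryonic origin, described by the study as most similar to hemocytes. All cultures were first grown for 36 h at 25 °C. RNA for 3 arrays was then isolated directly (0 h), and RNA for 3 more after a further 12 h at 25 °C without a shift (t12_25). The other cultures were kept at 14 °C, with 5 arrays each for 4 h and 24 h, 3 arrays for 12 h and 4 arrays for 72 h. Both 25 °C groups were pooled as a baseline of 6 arrays. The study describes the replicates as biological, and states that the experiment was repeated because the quality of some arrays was too low. The labels do not say which cultures were grown together or which arrays came from the repeat. Each one-colour Agilent array was hybridised with labelled RNA from 1 whole culture, so fewer cells in S phase and less Prim1 RNA per cell cannot be told apart.

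Across the 23 arrays, 15060 to 18697 gene probes (46.8 to 58.1%) were well above background, and 0 gene spots were saturated. The arrays came from 7 slides and 2 scan dates. The 4 h and 24 h groups shared the same 3 slides, whereas no slide held both a 25 °C array and a 4 h or 24 h array. The scanner software placed 6 arrays outside its quality range, namely 4 h replicate 5, 12 h replicates 2 and 3, and 72 h replicates 1, 2 and 3. The hemocyte marker srp was well above background on 23 of 23 arrays. The muscle precursor marker twi was well above background on 0 arrays, and the germline marker vas on 0 arrays with one probe and on 2 with the other.

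DNA polymerase cannot start a new strand on its own. Primase makes the short RNA primer, polymerase alpha extends it with DNA, and the pair works as a single complex that starts the leading strand and every Okazaki fragment of the lagging strand. In this complex Prim1 forms the primer, Prim2 is the large primase subunit, PolA1 is the catalytic subunit of polymerase alpha and PolA2 is its regulatory subunit. Transcripts for much of the replication machinery are made in a wave as cells pass from G1 into S phase, largely under E2F control.

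The Prim1 spot was bright at 25 °C and remained readable throughout the time course. Its median pixel intensity was 2402, 1835 and 2457 on the 0 h arrays, and 1707, 1414 and 2389 on the t12_25 arrays. After 4 h at 14 °C it was 1320, 1300, 1869, 1280 and 2080.5. After 12 h it was 786, 681 and 957. These 12 h spots were all dimmer than any spot at 4 h or at 25 °C. After 24 h the intensity was 496, 434, 446, 322 and 496, and after 72 h it was 492, 626, 620 and 607. The local background around the spot stayed between 19 and 33, so that the spot was between 15.3 and 104 times as bright as its surroundings. It was well above background, unsaturated and unflagged on all 23 arrays.

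**Figure D1:**
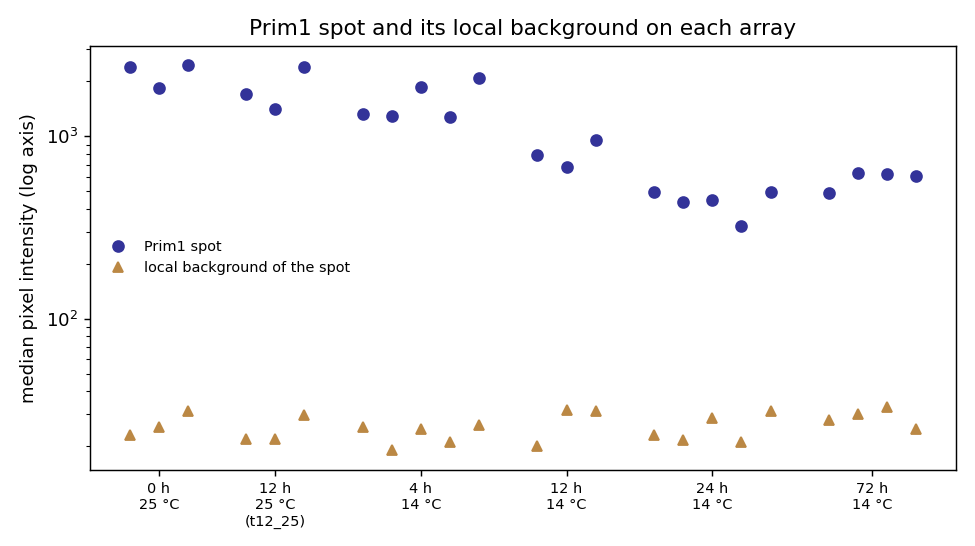
Median pixel intensity of the Prim1 spot (circles) and of its local background (triangles) on each of the 23 arrays, on a log axis, with arrays grouped by time and temperature in order of replicate number. The spot lies between 322 and 2457 and the background between 19 and 33, and the 24 h and 72 h spots are the dimmest.

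Raw intensities also carry differences in labelling and scanning between arrays, so the spot was related to the rest of its array. Divided by the 75th percentile of all probes on the same array, the processed Prim1 signal was 3.55 ± 0.349 at 0 h (SD, n = 3), 3.17 ± 0.338 in t12_25 (n = 3) and 2.77 ± 0.263 at 4 h (n = 5). It was 1.43 ± 0.144 at 12 h (n = 3), 0.808 ± 0.169 at 24 h (n = 5) and 0.94 ± 0.0995 at 72 h (n = 4). The signal was thus close to that percentile at 24 h and 72 h, and well above it at 4 h and at 25 °C. In rank, the spot was brighter than 68.8 to 73.5% of gene spots on the 24 h arrays and than 83.6 to 85.2% on the 25 °C arrays.

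After background correction and quantile normalization, the log2 intensity of Prim1 was 10.97, 10.83 and 10.94 at 0 h, and 10.93, 10.76 and 10.74 in t12_25. At 4 h it was 10.73, 10.59, 10.81, 10.56 and 10.60, which overlapped with t12_25 and lay below every 0 h value. At 12 h it was 9.82, 9.78 and 9.59, below every earlier array. At 24 h it was 9.24, 9.07, 9.14, 8.43 and 9.03, and at 72 h it was 9.00, 9.25, 9.31 and 9.11. The values at 24 h and 72 h overlapped with each other and lay below all 12 h values. By their means the groups were ordered from 0 h (10.91 ± 0.0767) through t12_25 (10.81 ± 0.104), 4 h (10.66 ± 0.106), 12 h (9.73 ± 0.126) and 72 h (9.17 ± 0.138) to 24 h (8.98 ± 0.319, all SD). In this order, neighbouring groups overlapped except for 4 h with 12 h and 12 h with 72 h.

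**Figure D2:**
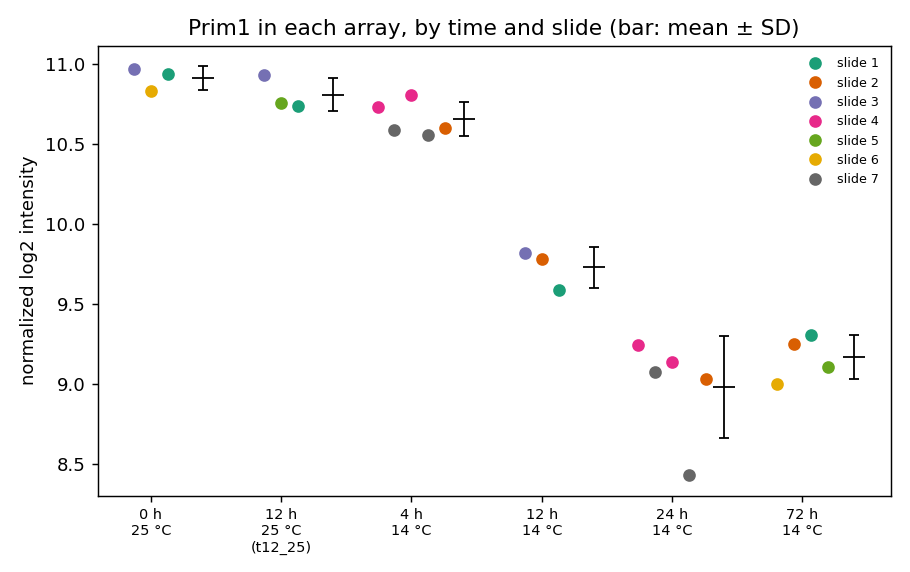
Normalized log2 intensity of Prim1 on each of the 23 arrays (points, coloured by slide), with the mean ± SD of each group beside its points. Arrays at 24 h and 72 h lie between 8.43 and 9.31 and those at 25 °C between 10.74 and 10.97, with 24 h replicate 4 the lowest of all.

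Relative to the 25 °C baseline (10.86 ± 0.0988, SD, n = 6), the log2 difference of Prim1 was -0.20 ± 0.106 (SE) after 4 h in the cold. It was -1.13 ± 0.124 at 12 h, -1.88 ± 0.106 at 24 h and -1.69 ± 0.113 at 72 h. Expressed as a level, the cold cultures held 86.8%, 45.6%, 27.2% and 30.9% of the signal at 25 °C at these 4 times. The 72 h level was 3.24-fold below the baseline. Over all 32162 probes, named or not, 39 had a more negative change at 72 h than Prim1. In the order of changes at 72 h among named genes called there and over the time course, Prim1 held place 4 of 44. The gene just before it was CG34232, with a change of -3.24, and the gene just after it was ND-AGGG, with -1.66. Because the time course test that entered the choice also read the arrays at 4, 12 and 24 h, the tests between these times below are not fully independent of it.

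Comparisons between times at 14 °C start at 4 h, so a decline before then cannot be read from them. From limma over all probes, Prim1 was lower at 12 h than at 4 h by -0.93 ± 0.128 on the log2 scale (SE, adjusted p = 0.000448), a level of 52.5% of that at 4 h. Between 4 h and 24 h it fell by 1.68 ± 0.111 (adjusted p = 1.09e-08), so that 31.3% of the 4 h signal remained. Only 3 of all 32162 probes had a more negative difference between 24 h and 4 h. Within the slides that held both groups, this difference was -1.58 on slide 2 (1 array of each), -1.58 on slide 4 (2 of each) and -1.82 on slide 7 (2 of each). The 5 arrays at 24 h all read lower than the 5 arrays at 4 h.

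The later step was less secure. At 24 h Prim1 was lower than at 12 h by -0.75 ± 0.128 (limma, adjusted p = 0.0109), and on slide 2, the single slide with both times, the difference was -0.75. This call was lost when any one of the 3 arrays at 12 h was left out (adjusted p = 0.0578 to 0.0955 in limma). Without the arrays outside the quality range, 1 array was left at 12 h and its spread was assumed to be that of the other groups. The difference between 12 h and 4 h was then -0.85 (limma, adjusted p = 0.374) and that between 24 h and 12 h was -0.84 (adjusted p = 1). Between 72 h and 24 h the difference was 0.19 ± 0.117, given with no test since the 72 h arrays chose the gene, and its interval ran from -0.06 to 0.43. Without a shift in temperature, no change passed the test. Prim1 differed by -0.10 ± 0.145 between t12_25 and 0 h (limma, adjusted p = 1, 95% interval from -0.40 to 0.20).

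The other subunits of the complex had lower transcript levels in the cold as well. Their changes against 25 °C are not set against those of Prim1, which was chosen on that contrast. For the large primase subunit Prim2, log2 intensities ranged from 10.08 to 10.41 at 72 h and from 11.06 to 11.40 at 25 °C. Its change was -0.59 ± 0.0995 at 12 h, -1.11 ± 0.0852 at 24 h and -1.01 ± 0.0908 at 72 h (SE, adjusted p in limma = 0.00027, 5.53e-09 and 4.44e-08). PolA2, the regulatory subunit, ranged from 9.65 to 10.26 at 72 h and from 10.69 to 11.51 at 25 °C, with a change of -1.24 ± 0.198 at 72 h (adjusted p = 8.52e-05). Without the arrays outside the quality range the PolA2 change at 72 h was -0.92 (adjusted p = 0.0713).

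PolA1, the polymerase itself, was read by a pair of probes. With the brighter probe, levels ranged from 11.62 to 12.08 at 72 h and from 12.56 to 12.87 at 25 °C, and the change was -0.81 ± 0.0966 (adjusted p = 2.23e-06). With the dimmer probe, they ranged from 8.01 to 8.97 at 72 h and from 9.06 to 9.84 at 25 °C, and the change was -0.77 ± 0.207 (adjusted p = 0.0108). The dimmer probe missed the threshold when 72 h replicate 1 was left out (-0.55, adjusted p = 0.0676) and without the arrays outside the quality range (-0.69, adjusted p = 0.257). At 4 h against 25 °C, none of these 4 partner probes passed the test, with changes between -0.19 and 0.07.

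The difference between Prim1 and its partners was examined within arrays, where the scaling of the whole array cancels. Prim1 was chosen for a large decline, partly by the time course test that read these arrays, and its partners were not. A larger decline in Prim1 was thus favoured in advance. The exact p-values below therefore describe how far the groups separate and cannot decide whether Prim1 declined more than its partners. On each array the mean log2 intensity of the 3 partner genes was subtracted from that of Prim1. At 24 h this difference was -1.02, -1.16, -1.13, -1.42 and -0.94, against -0.37, -0.55, -0.32, -0.41 and -0.35 at 4 h. The groups did not overlap. The mean difference was -0.74 (exact two-sided permutation test, n = 5 and 5, p = 0.0079, the smallest that the 252 splits of these arrays allow). Within slides it was -0.59, -0.73 and -0.81 on slides 2, 4 and 7, and with arrays exchanged only within slides the exact p was 0.0278. Without 24 h replicate 4 it was -0.66. At the other times Prim1 stood at -0.82 ± 0.0314 relative to its partners at 12 h (SD, n = 3), -0.98 ± 0.118 at 72 h (n = 4) and -0.30 ± 0.0818 at 25 °C (n = 6). Each of these is a difference between log2 intensities of different probes, so its size cannot be read as a ratio of transcripts. The change in this difference between 24 h and 4 h also moved with the processing. It was -0.67 with the local background left as read and -0.80 with a background offset of 0. Whether the probes respond equally to a change in transcripts was not tested.

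**Figure D3:**
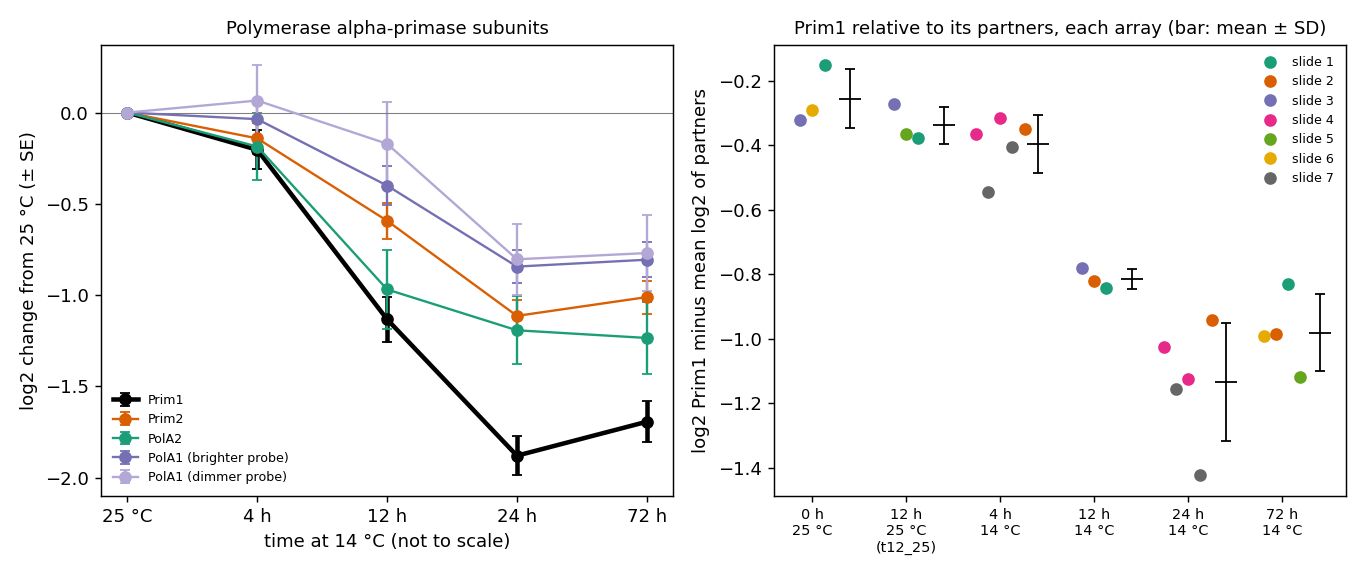
Left, log2 change from the 25 °C baseline (± SE) of the probes for Prim1, Prim2, PolA2 and PolA1 at each time at 14 °C. Right, log2 intensity of Prim1 minus the mean of its partner genes on each array, coloured by slide, with mean ± SD per group. The partner probes lie between -0.80 and -1.19 at 24 h, and the right panel shows no overlap between 24 h and 4 h. Prim1 was chosen on its change from 25 °C, so its place in the left panel is not a test. That choice also favoured a larger decline of Prim1 than of its partners in the right panel.

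Prim1 belongs to a list of S phase genes that the study curated from functional annotation and restricted to probes with clear expression. Without Prim1 the list holds 52 probes for 36 genes. At 72 h, 41 of these 52 probes were lower than at 25 °C (limma, adjusted p under 0.05) and 0 were higher, whereas 9.25% of all probes were lower. At 24 h 42 were lower (7.97% of all probes), at 12 h 26 (5.2%) and at 4 h 4 (2.84%). Without the arrays outside the quality range, which leaves 1 array each at 12 h and 72 h, 27 probes were lower at 72 h and 12 at 12 h. The count at 4 h varied between 0 and 14 with the processing. Leaving out 4 h replicate 2, 4 h replicate 4, 4 h replicate 1 or 0 h replicate 3 gave 0, 1, 2 and 2 probes. The median change of the list was -0.10, -0.52, -0.80 and -0.81 at 4, 12, 24 and 72 h, while the median over all probes was 0.00 at each of these times. In 35 of the 52 probes, every 72 h array lay below every 25 °C array, as was the case for 6.45% of all probes. The shares over all probes, here and below, include probes not well above background. Only 46.8 to 58.1% of probes per array were, so these shares are not matched to a list of expressed genes.

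Comparisons among the cold arrays, which do not involve the baseline, gave the same direction. Between 24 h and 4 h, 34 list probes were lower and 0 higher (3.43% of all probes lower). Between 12 h and 4 h, 13 were lower (0.765% of all probes), and between 24 h and 12 h, 6 were lower (0.196%). These 6 probes read Cdc45, Prim2, dpa, Mcm6, Orc6 and RnrS. Between t12_25 and 0 h, 0 list probes and 0% of all probes were lower in limma, and 1303 probes had an unadjusted p under 0.05 in either direction. Between 24 h and 4 h, 0 of the 52 probes had a more negative difference than Prim1, a place that its choice also favoured. At 4 h against 25 °C, 17 of them were more negative than Prim1.

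Among the Mcm2-7 genes, which encode the ring-shaped replicative helicase, 8 of 9 probes were lower at 72 h, with a median change of -1.14. The most negative was dpa, the Mcm4 gene, with -1.60 ± 0.0909 (SE). The least negative was a probe for Mcm7 (A_09_P032536) with -0.30 ± 0.217, which was well above background on 10 of 23 arrays. The other Mcm7 probe changed by -0.92 ± 0.20 and passed the test.

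Both ribonucleotide reductase genes, which supply deoxynucleotides, were lower at 72 h. RnrS, the small subunit, changed by -1.34 ± 0.0612 and RnrL, the large subunit, by -1.19 ± 0.113. For origin recognition and licensing, where the origin recognition complex, Cdc6 and the Cdt1 homologue dup load the helicase, 11 of 13 probes were lower, with a median of -0.90. Among them Orc5 changed most with one of its probes (-1.32 ± 0.185) and Orc2 least with one of its own (-0.50 ± 0.105). The other Orc5 probe changed by -0.61 ± 0.212 and did not pass.

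Of the genes for helicase activation (Cdc45, Mcm10 and the GINS subunits Sld5, Psf1, Psf2 and Psf3), 6 of 8 probes were lower at 72 h. The changes ran from -1.30 ± 0.104 for Sld5 to -0.11 ± 0.115 for a probe of Psf3 that did not pass. The other Psf3 probe changed by -0.52 ± 0.119 and passed. Of the elongation genes (clamp loader, RPA and a polymerase epsilon subunit), 4 of 7 probes were lower. A probe for RfC4, a clamp loader subunit, was lowest with -0.98 ± 0.176. The other RfC4 probe changed by -0.70 ± 0.535 and did not pass. The probe for RPA1, the large subunit of the single-strand binding protein, had a change of 0.01 ± 0.71, and its SD among the 25 °C arrays was 1.35.

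Histone mRNA processing had 3 of 4 probes lower, from -0.71 ± 0.121 for Lsm10 to -0.25 ± 0.15 for Lsm11, which did not pass. The S phase kinase role, with 5 probes for 2 genes, had the least negative median (-0.31), and 3 of 5 probes were lower. Its CycE probes A_09_P052456 and A_09_P160420 were dim at 25 °C, with mean log2 intensities of 6.775 and 6.665. The median over all probes and arrays was 6.36. These dim probes changed by -0.24 and -0.14 at 72 h. The role median was that of another CycE probe, A_09_P049981, with a mean of 8.73 at 25 °C. Whether dimness made the changes of this role small was not tested. Cdk2 changed by -0.73 ± 0.163, and the least negative CycE probe by -0.14 ± 0.0698 without passing the test. Between 72 h and 24 h, 1 list probe was higher, against 1.75% of all probes, and 0 were lower. It reads Orc6, which was higher at 72 h by 0.77 (limma, adjusted p = 0.000829).

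**Figure D4:**
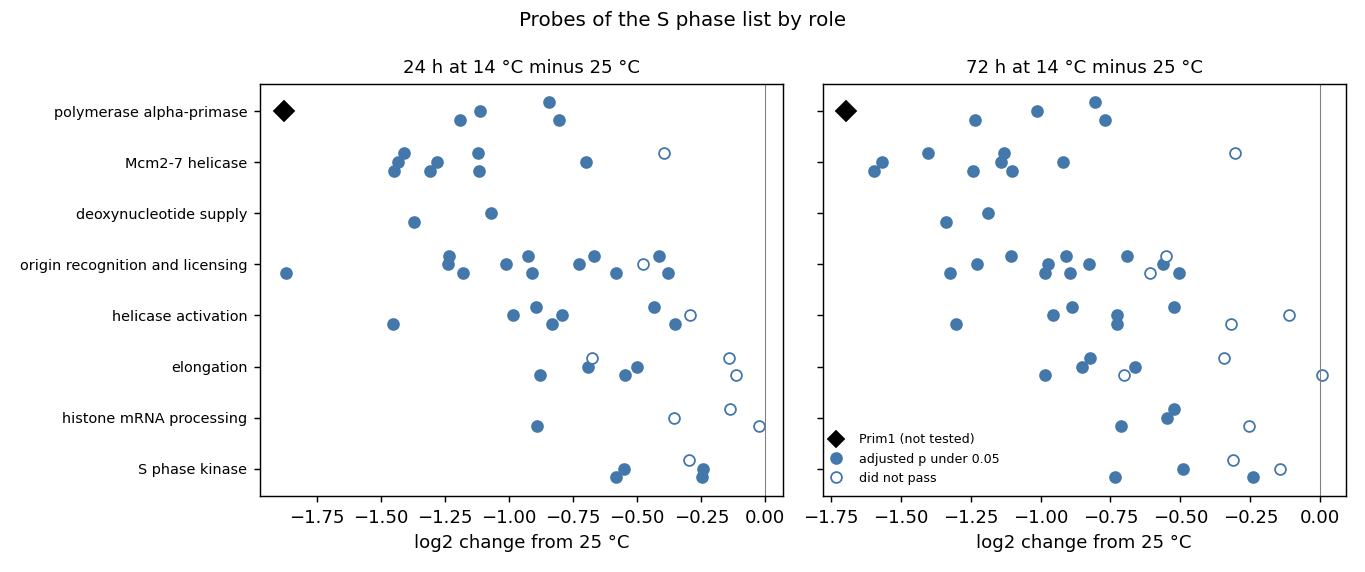
Log2 change from 25 °C of each S phase probe at 24 h (left) and 72 h (right) at 14 °C, by role. Prim1 is the black diamond, filled circles passed the test (adjusted p under 0.05) and open circles did not. Prim1 lies at -1.88 and -1.69, with Orc6 beside it at 24 h (-1.87), and its place at 72 h follows from how it was chosen.

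Genes with a pattern like that of Prim1 were sought over all 23 arrays by Pearson's r, among 14282 probes well above background on at least 20 arrays. Of these probes 2388 carry a gene name here, mostly from tables of the study, so genes on its curated lists are more often named than others. The 8 named genes most like Prim1 were Mcm6 (r = 0.99), Mcm2 (0.98), Prim2 (0.98), RnrS (0.98), dpa (0.98), Mcm10 (0.97), Sld5 (0.97) and PolA1 (0.97). All 8 are on the S phase list, and among all probes compared, named or not, they stood between rank 1 and rank 14. The median r over all compared probes was -0.01, and 1.43% of them exceeded 0.9. For the 50 list probes compared, r ranged from -0.01 to 0.99, with a median of 0.85, and 18 exceeded 0.9. The arrays share the same course of temperature and time, so these values describe likeness over that course. With each slide's mean removed, r was 0.97 for PolA2, against 0.86 without this step. For PolE2 it was 0.99, against 0.65, and for RfC3 it was 0.17, against 0.27. With this step PolE2 stood above Mcm2 (0.98), so the choice of the 8 genes depends on leaving slide out.

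**Figure D5:**
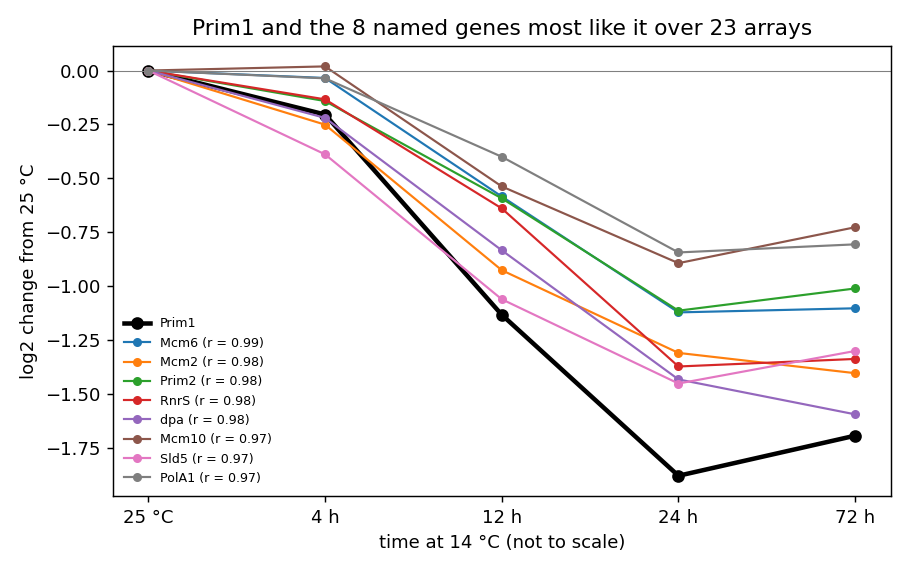
Mean log2 change from 25 °C at each time at 14 °C for Prim1 (black) and for the 8 named genes with the highest Pearson's r to it over the 23 arrays. All lines descend mainly between 4 h and 24 h, and at 24 h the 8 genes lie between -1.45 and -0.84, with Prim1 at -1.88. Prim1 was chosen on its change from 25 °C, so its place below the other lines is not a test.

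The adjacent gene Pex2, which encodes a peroxisome biogenesis factor, was examined for its position, outside the rule for named genes and after the data had been seen. Its probe was well above background on all 23 arrays. Its log2 intensity was 9.26 ± 0.0875 at 4 h (SD, n = 5), 9.13 ± 0.0378 at 12 h (n = 3), 8.84 ± 0.224 at 24 h (n = 5) and 8.99 ± 0.198 at 72 h (n = 4), against 9.84 ± 0.113 at 25 °C (n = 6). Pex2 was lower by 4 h (-0.58 ± 0.0898, SE, adjusted p in limma = 0.000189). Between 24 h and 4 h it differed by -0.42 ± 0.0938 (adjusted p = 0.00703), and between 12 h and 4 h by -0.13 ± 0.108 (adjusted p = 0.751). Whether the courses of Pex2 and Prim1 differ was not tested.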

How the data were processed

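Total RNA was labelled with Cy3 and hybridised to one-colour Agilent Drosophila 4x44k arrays, scanned and read with Agilent Feature Extraction 10.7. From the deposited files, the median spot intensity and median local background (intensity, not normalized by the authors) were used. For 23 gene spots on 7 arrays, the local background exceeded the median of its array more than 3 times over and was replaced by that median, normexp correction with an offset of 50 was applied, and values were quantile normalized and log2 transformed, with outlier-flagged spots left out (51 missing values) and replicate spots reduced to their median. The log2 values deposited by the authors, which per their methods were normexp-corrected, quantile normalized and adjusted for surrogate variables, served as an alternative, as did the processed signal intensity deposited in the same files. The authors' own comparisons were not used. The number of arrays limits the precision.

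All groups entered 1 limma fit (R 4.3.3, limma 3.58.1), with Benjamini-Hochberg adjustment over 32162 probes and adjusted p under 0.05 as the threshold. The script was tested on simulated data. Named genes were Prim1, every probe of its partner subunits, the most and least negative probe at 72 h in each other role of the S phase list, the 8 named genes with the highest r, and the neighbours of Prim1 in the order at 72 h. Cdc45, Orc6, PolE2, RfC3, Pex2 and the other probes of Mcm7, Orc5, Psf3 and RfC4 were named outside this rule, after their values were seen. Prim1, the lists and the tests were chosen with earlier results of these data known. Gene names were available for 3985 probes, through tables of the study and RefSeq. Alternatives covered background, scaling, slide, scan date and replicate number as blocks, a filter on dim probes, the baseline and each array left out. Deviations from the group means correlated above 0.1 in 33 of 49 same-numbered pairs of arrays (median 0.468, range -0.83 to 0.84) and in 74 of 169 other pairs (median -0.20). The median was 0.535 for arrays on the same slide and -0.20 for arrays on different slides. Since not every same-numbered pair exceeded 0.1, the numbers were not used to pair arrays. Planned promoter motif searches were not run, as no sequence was used here.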

Additional observations from a re-analysis of the deposited data

Results flagged for a closer look

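In groups of 4 or 5 arrays, the highest or lowest array was compared with the rest by Dixon's ratio for Prim1, its partner probes and the difference between them. Of 18 groups examined, 2 exceeded the 95% limit, and chance gives about 1 in 20. In both, the array was 24 h replicate 4. For Prim1 it read 8.43, and the next lowest 24 h array read 9.03 (ratio 0.738). For Prim2 it read 9.81, with the next at 10.15 (ratio 0.753). Its Prim1 spot had an intensity of 322, against 434 to 496 on the other 24 h arrays. Without this array, Prim1 differed by -1.54 between 24 h and 4 h (limma, adjusted p = 1.41e-10) and by -1.74 between 24 h and 25 °C.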

How the results depend on the processing

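Prim1 kept its direction in every alternative run. Its difference between 24 h and 4 h stayed past the threshold in all of them (-1.80 to -1.57, and -1.74 to -1.54 with each array left out). The exact p of its difference to the partner subunits also stayed under 0.05 wherever the permutation test could be run. Since the choice of Prim1 favoured a larger decline in advance, this too cannot decide whether Prim1 declined more than its partners. The step between 24 h and 12 h lost its call with an offset of 0 (-0.81), median scaling (-0.66), the 75th percentile of the processed signal (-0.85), slide as a block (-0.77), the arrays outside the quality range left out (-0.84) and the compared groups alone (-0.75), and ranged from -0.82 to -0.61 with each array left out. Without the arrays outside the quality range, the step between 12 h and 4 h was -0.85 and no longer passed, with 1 array left at 12 h, and the S phase list had 12 probes lower at 12 h and 27 at 72 h. With median scaling, Prim1 was at -0.41, -1.49, -2.15 and -2.04 at 4, 12, 24 and 72 h against 25 °C, and with the 75th percentile at -2.08 at 24 h. These scalings moved the median of all probes at 72 h by -0.11 and 0.59. Of the probes called at 72 h, 53.7% were lower in the main setting, against 84.3% and 17.4% with these scalings. Probes of the list lower at 4 h numbered 0 with an offset of 0, with the 75th percentile and with either 25 °C group alone as baseline, 7 with median scaling, 14 with the authors' log2 values and 10 with scan date as a block, and ranged from 0 to 6 with each array left out. With the replicate number as a block it was 7, and Prim1 differed by -1.68 between 24 h and 4 h (adjusted p = 2.12e-08). The block changed no call of Prim1. List probes lower at 12, 24 and 72 h against 25 °C then numbered 31, 41 and 43, against 26, 42 and 41 in the main setting. Between 24 h and 4 h they numbered 40, against 34. Where no value above shows it, the cause was not tested.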
